A study of Mus musculus with 34 samples.

Results

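Coronal fractions 7, 8 and 9 of the brain of a 3-day-old mouse were compared with the other 12 coronal fractions of the same brain. The block was chosen by fraction number alone, as 3 of the 15 coronal fractions and 3 of the 34 fractions measured, and is called here the thalamus and hypothalamus level block as a working name. The animals were 3 untreated male C57BL/6J mice, each cut along 1 axis into fractions 500 μm thick (100 slices of 5 μm): the coronal mouse gave 15 fractions, the horizontal mouse 8 and the sagittal mouse 11, with sagittal fractions 1 and 11 each holding a pool of cut fractions. Each fraction was hybridised once to a one-colour Agilent SurePrint G3 Mouse array. No fraction has a replicate array, and the 3 block fractions are neighbouring positions of 1 mouse, so that every p-value below measures the block against the spread between positions and says nothing about other mice. The plane of section and the mouse cannot be told apart.

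From the labels it is not known whether coronal fraction 1 is the front or the back of the brain. Among marker genes, hindbrain genes had most of their highest values in fractions 2 and 3, and striatal genes in fractions 11 and 12. Between 29598 and 36406 of the 59305 spots were called well above background on a coronal array (34681 to 35904 in the block), and precision is limited by how few arrays there are. Coronal fractions 1 to 8 lay on 1 slide, whereas fraction 9 lay with fractions 10, 11, 13, 14 and 15 on another and fraction 12 on a further slide. The comparison of the block with fractions 10 to 12 therefore crosses slides, and values within slides are given below where they bear on a result. All values are log2 signals relative to the array's 75th percentile of signal, which is 0 on this scale, so that values compare fractions for 1 gene and never 1 gene with another.

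The thalamus relays sensory and motor signals to the cerebral cortex through glutamatergic neurons, and the habenula and the pineal gland sit on its dorsal side. The hypothalamus lies below it and controls hormone release, feeding, sleep and temperature through small groups of neurons, many of which are defined by 1 neuropeptide. Melanin-concentrating hormone and hypocretin neurons occupy the lateral hypothalamus, Agrp and Pomc neurons the arcuate nucleus, and vasopressin and oxytocin neurons the paraventricular and supraoptic nuclei. In a bulk fraction, fewer cells of a type and less RNA per cell cannot be told apart.

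Sequences are shown for genes whose 3 block values all lay above the other 12 coronal fractions. They are 2 peptide genes, Pmch (melanin-concentrating hormone) and Hcrt (hypocretin, also called orexin), and 3 of the 4 genes that were called higher than in both neighbouring blocks, the transcription factor genes Fezf1 and Six6, and Vil1 (villin, an actin-binding protein). The 250 bases before each transcription start are given. The sequences are those of RefSeq on GRCm38.p6, 5′ to 3′ on the gene's strand, and capitals mark a match on either strand to 1 of 4 short motifs. Homeodomain proteins commonly bind a core written TAATTA. The core of the sites of TCF and LEF proteins was searched as CTTTGA. The nuclear receptor half-site was searched as AGGTCA, and the TATA box of core promoters as TATAAA. Matches to these motifs do not overlap in these sequences. Prkch (protein kinase C eta), the other gene called against both blocks, has no sequence here.

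Pmch, chr10:88090822-88091071, forward strand: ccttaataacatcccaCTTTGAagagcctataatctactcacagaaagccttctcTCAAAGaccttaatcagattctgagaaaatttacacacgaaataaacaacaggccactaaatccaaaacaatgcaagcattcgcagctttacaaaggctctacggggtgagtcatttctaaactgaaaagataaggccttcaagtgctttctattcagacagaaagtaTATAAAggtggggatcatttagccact
Hcrt, chr11:100762932-100763181, reverse strand: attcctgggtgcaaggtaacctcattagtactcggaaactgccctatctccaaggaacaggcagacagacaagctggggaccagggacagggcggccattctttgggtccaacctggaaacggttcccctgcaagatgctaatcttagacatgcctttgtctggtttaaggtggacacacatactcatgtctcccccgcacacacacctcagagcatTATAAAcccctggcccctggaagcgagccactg
Fezf1, chr6:23248265-23248514, reverse strand: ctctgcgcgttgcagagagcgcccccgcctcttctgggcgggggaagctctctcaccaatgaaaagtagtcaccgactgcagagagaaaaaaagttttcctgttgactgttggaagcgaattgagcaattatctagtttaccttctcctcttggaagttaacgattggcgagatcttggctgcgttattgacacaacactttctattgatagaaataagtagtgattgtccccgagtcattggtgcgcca
Six6, chr12:72939632-72939881, forward strand: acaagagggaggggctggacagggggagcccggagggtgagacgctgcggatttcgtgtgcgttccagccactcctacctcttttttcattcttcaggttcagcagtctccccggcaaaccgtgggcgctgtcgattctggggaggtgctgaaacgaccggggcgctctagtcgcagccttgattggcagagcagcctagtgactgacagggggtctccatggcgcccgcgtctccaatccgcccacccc
Vil1, chr1:74409134-74409383, forward strand: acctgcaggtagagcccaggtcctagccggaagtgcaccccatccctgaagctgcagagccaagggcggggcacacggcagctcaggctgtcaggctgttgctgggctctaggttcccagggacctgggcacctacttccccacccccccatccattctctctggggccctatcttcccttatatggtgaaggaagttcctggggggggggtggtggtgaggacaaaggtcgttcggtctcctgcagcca

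The window of Pmch held 2 matches to CTTTGA and 1 to TATAAA, and that of Hcrt held 1 match to TATAAA. Those of Fezf1, Six6 and Vil1 held no match to any of the 4. Among 32851 windows of the same length, 12.4% held TATAAA, 13.8% CTTTGA, 14% AGGTCA and 4.84% TAATTA. In base composition the windows of both peptide genes differed, with 38.4% G and C in Pmch and 53.6% in Hcrt, beside 47.6% in Fezf1 and 62.8% in both Six6 and Vil1 (median of all windows 52.4%). Fezf1 and Six6 had 12 and 17 CpG dinucleotides, above the median of 6 over all windows, while Pmch had 3, Hcrt 5 and Vil1 5. These are descriptions of the letters in the windows and say nothing about which factors bind there.

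**Figure D1:**
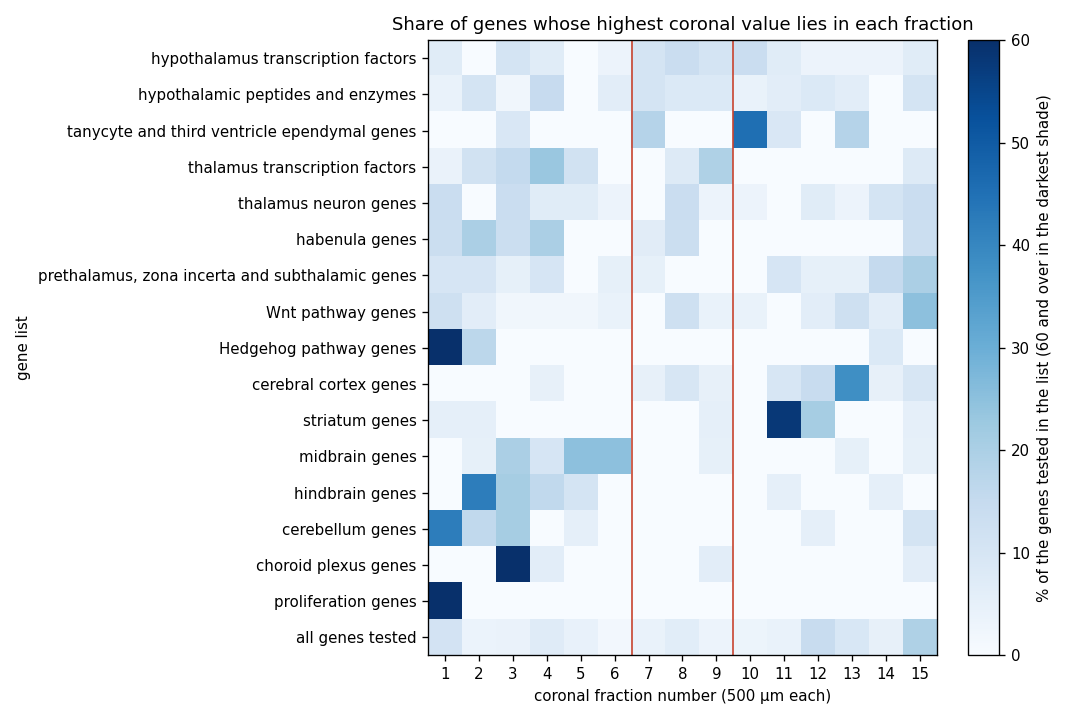
Share of the tested genes of each marker list (rows) whose highest coronal value lay in each of the 15 coronal fractions (columns), in percent of the list. The lines enclose fractions 7 to 9, which held the highest value of 34.5% of the hypothalamus transcription factors and 27.1% of the hypothalamic peptides, and of 13.8% of all genes tested.

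The working name was set against marker lists. Of 15759 genes with a tested probe, 2172 (13.8%) had their highest coronal value in fractions 7 to 9 and 1915 (12.2%) their lowest. Among 29 hypothalamus transcription factor genes tested (of 32 listed) 10 peaked in the block, which is 34.5%, and among 48 hypothalamic peptide and enzyme genes tested 13 did (27.1%). Thalamus transcription factors peaked there in 7 of 26 cases (26.9%), and 16 others peaked in fractions 2 to 5. Genes of thalamic neurons peaked there in 5 of 29 (17.2%) and habenula genes in 3 of 15 (20%). Cerebral cortex genes (4 of 21, 19%) and hippocampus genes (3 of 15, 20%) had shares near these 2, whereas striatum (5.26%) and midbrain genes (5%) had lower ones. The share of thalamus transcription factors that peaked in the block (26.9%) was close to that of hypothalamic peptide and enzyme genes (27.1%). Most genes of each of these lists had their highest value outside the block, for thalamus transcription factors mainly in fractions 2 to 5. The defining hypothalamic factors Sim1, Otp and Bsx were not well above background in any coronal fraction, and Barhl2 of the thalamus list was not either.

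**Figure D2:**
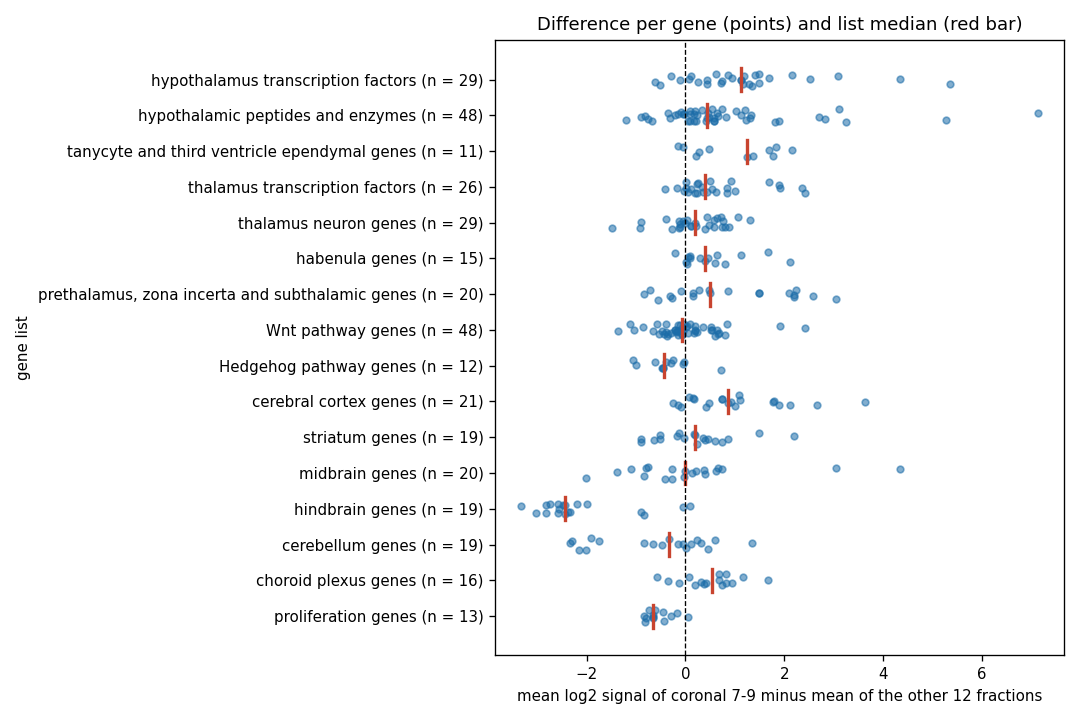
Mean log2 signal of coronal fractions 7 to 9 minus that of the other 12 coronal fractions for each tested gene (points) of each marker list (rows), with the list's median (red bar) and the median of all genes tested (dashed line, -0.01). The medians of the hypothalamus transcription factors (1.13) and of the tanycyte genes (1.24) lay farthest to the right, and that of the hindbrain genes (-2.44) farthest to the left.

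Tested against all other 12 fractions at once, no probe passed. Limma, fitted to 33788 probes that were well above background in at least 3 coronal fractions, called 0 probes higher (0%) and 0 lower (0%) at an adjusted p under 0.05. At an unadjusted p under 0.05 there were 1546 probes higher and 1141 lower, and the lowest adjusted p was 0.0772, shared by Hcrt and Prkch. A gradient along the brain enters the spread of the 12 fractions in this test. Differences were centred near 0 (median -0.02), and 456 probes were at least 2-fold higher and 297 at least 2-fold lower in the block. In 544 probes (1.61%) the 3 block fractions all lay above all 12 others, and in 289 (0.855%) all lay below. With values under the detection limit raised to that limit these were 535 (1.58%) and 263 (0.778%). By gene, 354 (2.25%) lay above and 169 (1.07%) below. Neighbouring positions are alike and no test is attached to these counts. Neighbouring fractions differed 2-fold in 1.68% of probes between fractions 6 and 7, 1.98% between 7 and 8, 1.35% between 8 and 9 and 1.26% between 9 and 10.

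The block was next compared with each neighbouring block on its own, in a fit with 5 blocks of 3 fractions. Compared with fractions 4 to 6, 21 probes were higher (0.0622%) and 47 lower (0.139%). Compared with fractions 10 to 12, 240 were higher (0.71%) and 263 lower (0.778%). By gene these were 14 (0.0888%) and 30 (0.19%) against fractions 4 to 6, and 158 (1%) and 126 (0.8%) against fractions 10 to 12. Just 4 probes were higher than in both neighbouring blocks (0.0118%), those of Fezf1, Six6, Vil1 and Prkch, and 0 were lower than in both (0%). At an unadjusted p under 0.05 in each comparison these were 132 and 100. When fractions 4 to 6 and 10 to 12 were instead pooled as 1 reference group, limma called 0 probes higher and 0 lower (lowest adjusted p = 0.862, with 807 higher and 650 lower at an unadjusted p under 0.05), so that the calls above belong to the fit with 5 blocks. With the slide as a block in the fit, 4 of the 21 and 8 of the 47 calls against fractions 4 to 6 were kept, and 2 of the 240 and 0 of the 263 calls against fractions 10 to 12. That fit called 0 probes higher or lower than in both blocks, beside 39 higher and 20 lower at an unadjusted p under 0.05. In the slide fit, the difference from fractions 4 to 6 is that of fractions 7 and 8 alone. Its difference from fractions 10 to 12 is that of fraction 9 from fractions 10 and 11, and so rests on 1 block array. Neither describes the block of 3 fractions. Without the slide in the fit, the count of 4 was 0 when fraction 8 was left out and 1 when fraction 7 was.

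Fezf1, a zinc finger gene of the ventromedial hypothalamus, measured -1.19, 0.25 and -0.13 in fractions 7, 8 and 9, and -1.69, -3.38 and -3.89 in fractions 10, 11 and 12. It was not well above background in any other coronal fraction, so that its signal passed from below detection in fraction 6 to its maximum in fraction 8. The difference from fractions 4 to 6 was 6.49 ± 0.55 (SE, log2; adjusted p = 0.0007), which is at least 27.4-fold since those 3 fractions gave only a bound. From fractions 10 to 12 it was 2.63 ± 0.55 (adjusted p = 0.043). Within slides, fractions 7 and 8 exceeded fractions 1 to 6 by 6.46, and fraction 9 exceeded fractions 10 and 11 by 2.40. With the slide in the fit the adjusted p was 0.0052 against fractions 4 to 6 and 0.934 against fractions 10 to 12.

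Six6, a homeobox gene of the suprachiasmatic region, eye and pituitary, measured -2.9965, -1.69 and -1.15 in fractions 7, 8 and 9 and -3.24 in fraction 10. It was well above background in those 4 coronal fractions and in no other, and the block's lowest value lay close to that of fraction 10. Against fractions 4 to 6 the difference was 5.12 ± 0.66 (adjusted p = 0.011, at least 9.13-fold), and against fractions 10 to 12 it was 3.07 ± 0.66 (adjusted p = 0.045). The slide fit gave adjusted p = 0.0413 and 0.866.

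Vil1 and Prkch gave smaller differences. Vil1 measured -3.61, -2.19 and -3.18 in the block, between -5.39 and -3.93 (median -4.84) in the other 12 fractions. It was well above background in 1 of fractions 4 to 6, from which it differed by 2.07 ± 0.35 (adjusted p = 0.039), and in none of fractions 10 to 12, from which it was at least 3.17-fold higher (measured difference 1.96 ± 0.35, adjusted p = 0.0313). Prkch was well above background in all 15 fractions and measured -1.64, -0.99 and -1.42 in the block, between -3.40 and -2.32 (median -2.65) elsewhere. It differed by 1.25 ± 0.22 from fractions 4 to 6 (adjusted p just under the threshold at 0.05) and by 1.20 ± 0.22 from fractions 10 to 12 (adjusted p = 0.0342). With the slide in the fit, both genes had an adjusted p of 0.229 against fractions 4 to 6 and 0.934 against fractions 10 to 12. Within slides, Prkch differed by 1.29 between fractions 7 and 8 and fractions 4 to 6, and by 0.99 between fraction 9 and fractions 10 and 11.

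**Figure D3:**
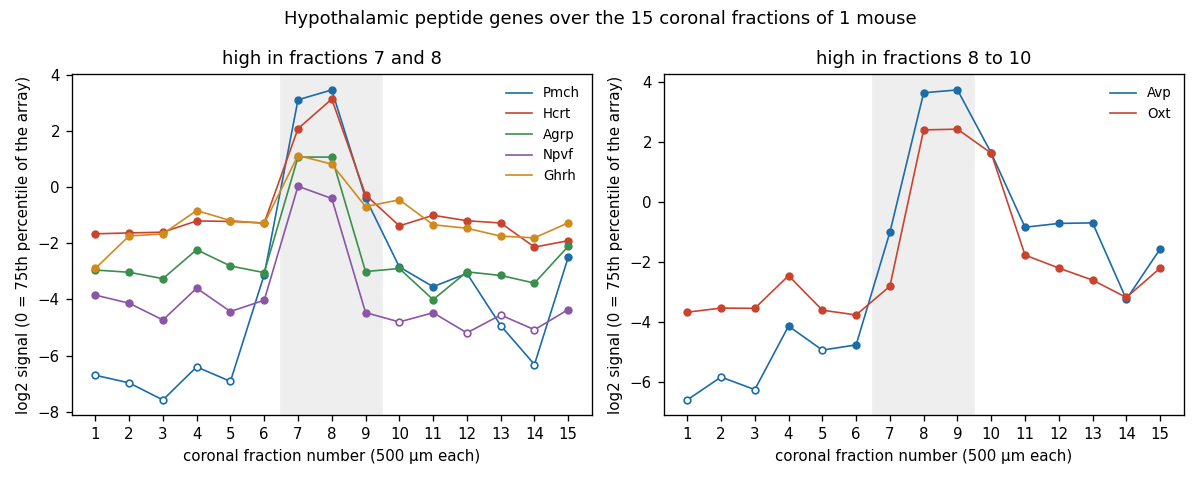
Log2 signal (0 is the array's 75th percentile) of hypothalamic peptide genes over the 15 coronal fractions of 1 mouse, with fractions 7 to 9 shaded. Filled points were well above background and open points were not. Pmch, Hcrt, Agrp, Npvf and Ghrh (left) were high in fractions 7 and 8 and lower in 9, whereas Avp and Oxt (right) were high from fraction 8 to fraction 10.

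Neuropeptide genes divided the block. Pmch, whose product promotes feeding and sleep, measured 3.11, 3.47 and -0.39 in fractions 7, 8 and 9, and its other 12 values lay between -7.58 and -2.49 (median -5.62). All 3 block fractions were above all others. Against fractions 4 to 6, in which it was well above background in fraction 6 alone, the difference was 7.54 ± 1.18 (adjusted p = 0.028, and 0.0413 with the slide in the fit). From fractions 10 to 12 it differed by 5.22 ± 1.18 (adjusted p = 0.0504), which missed the threshold.

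Hcrt, whose product maintains wakefulness, measured 2.09, 3.14 and -0.27 in the block. The other 12 fractions spread over a narrow range, from -2.13 to -1.0003 with a median of -1.33, and did not overlap the block. The difference from fractions 10 to 12 was 2.84 ± 0.60 (adjusted p = 0.043), whereas from fractions 4 to 6 it was 2.88 ± 0.60 (adjusted p = 0.0916). The slide fit sets fractions 7 and 8, without fraction 9, against fractions 4 to 6, and there the adjusted p was 0.0044.

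Agrp and Npvf showed the same division in fractions 7 and 8 against 9. Agrp, the agouti-related peptide of feeding neurons, measured 1.07, 1.07 and -3.01, and its other fractions lay between -4.01 and -2.10. Npvf, which encodes RFamide peptides that act on gonadotropin release, measured 0.03, -0.40 and -4.47, with other fractions between -5.19 and -3.60. Fractions 7 and 8 were above all others, while fraction 9 lay inside the range of the remaining fractions for both genes. Neither passed against a neighbouring block, with adjusted p between 0.0725 and 0.384. With the slide in the fit, fractions 7 and 8 alone are set against fractions 4 to 6, and the adjusted p was 0.017 for Agrp and 0.0044 for Npvf.

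When fraction 9 was left out, 5 probes passed against all other fractions. Among these genes the difference was 4.07 for Hcrt (adjusted p = 2.17e-05), 4.06 for Agrp (adjusted p = 9.98e-05) and 4.25 for Npvf (adjusted p = 6.58e-05). Impg2, a proteoglycan gene best known from the retina that was named after its values were seen, passed with 2.43 (adjusted p = 0.0147). With fraction 9 included, the differences were 3.11 ± 0.45, 2.70 ± 0.62, 2.82 ± 0.64 and 1.96 ± 0.32, with adjusted p of 0.0772, 0.565, 0.55 and 0.0869. Without fraction 7, limma called 0 probes (888 higher and 742 lower at an unadjusted p under 0.05), and without fraction 8 it also called 0 (548 higher and 425 lower).

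Arcuate and related genes showed the early part of the block too. Ghrh, the growth hormone releasing hormone gene, measured 1.13, 0.82 and -0.69, against -2.89 to -0.45 elsewhere, and fraction 9 lay below fraction 10. Kiss1, whose product drives gonadotropin-releasing hormone neurons, had its highest value in fraction 7 (-1.20), followed by fraction 10 (-2.57). Pomc, the precursor of melanocortins and of pituitary corticotropin, measured 0.65, 1.44 and 0.16, and fraction 15 reached 1.08. None of the 3 passed against either neighbouring block.

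Avp and Oxt, the vasopressin and oxytocin genes, lay later in the block. Avp measured -1.01, 3.63 and 3.73 in fractions 7, 8 and 9, then 1.62 in fraction 10 and between -6.60 and -0.70 in the others. It was higher than in fractions 4 to 6 by 6.73 ± 1.11 (adjusted p = 0.0321, and 0.229 with the slide in the fit), and differed from fractions 10 to 12 by 2.10 ± 1.11 (adjusted p = 0.285). Oxt measured -2.81, 2.39 and 2.42 in the block and 1.62 in fraction 10, with all other fractions at -1.77 or lower. Its differences of 3.95 ± 1.24 and 1.46 ± 1.24 from the blocks on either side did not pass (adjusted p = 0.308 and 0.519). Fraction 7 thus carried high Pmch, Hcrt, Agrp and Npvf with low Oxt, and fraction 9 the reverse for Agrp, Npvf and Oxt.

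Other peptide genes were not centred on the block. Trh, the thyrotropin-releasing hormone gene, measured 0.50, 1.66 and 1.93 in the block and was highest in fraction 15 (3.37). Npy, the neuropeptide Y gene of many forebrain interneurons, measured 3.50, 3.99 and 4.30 and was lower than in fractions 10 to 12 by 1.35 ± 0.30 (difference -1.35, adjusted p = 0.0474, and 0.934 with the slide in the fit). Gnrh1, the gonadotropin-releasing hormone gene, was not well above background in the block and was so in fractions 10 to 15. Of the 48 peptide and enzyme genes tested, 36 had a positive difference between the block and the other fractions (median 0.45), beside 48.1% of all genes (median -0.01). Pmch and Avp were the 2 called higher than in fractions 4 to 6 (0.0888% of all genes). Hcrt, Bdnf and Scg2 were the 3 called higher than in fractions 10 to 12 (1% of all genes), and Npy the 1 called lower (0.8% of all genes).

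**Figure D4:**
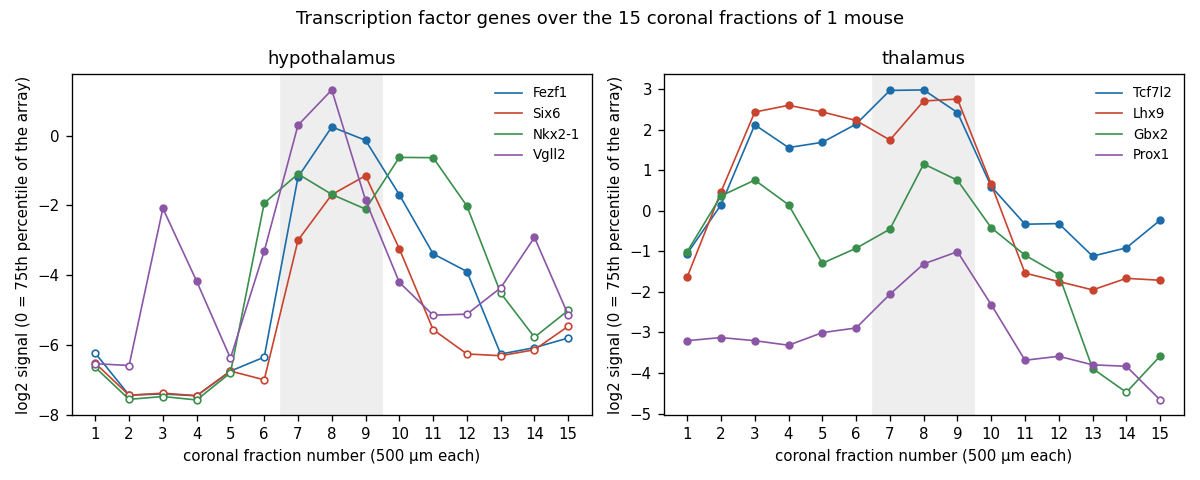
Log2 signal of transcription factor genes over the 15 coronal fractions of 1 mouse, with fractions 7 to 9 shaded and open points for values not well above background. Fezf1 and Six6 stood above all other fractions in the block and Nkx2-1 ran on to fraction 11 (left), while Tcf7l2, Lhx9 and Gbx2 were also high in fraction 3 (right).

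Among hypothalamus transcription factors the extent of the high region differed from gene to gene. Nkx2-1, which specifies the ventral hypothalamus and parts of the basal forebrain, measured -1.10, -1.68 and -2.10 in the block and -1.93, -0.62 and -0.63 in fractions 6, 10 and 11, so that the block did not stand apart. Rax, a homeobox gene of tanycytes and the retina, measured -1.94 and -3.25 in fractions 7 and 8 and was not well above background in fraction 9 (-5.43). Nr0b1, a nuclear receptor gene of the hypothalamic-pituitary axis, measured -2.58, -1.99 and -2.38, just above the highest of the other fractions at -2.86. It differed from fractions 4 to 6 by 0.65 ± 0.28 (adjusted p = 0.504).

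Nr5a1, the steroidogenic factor gene of the ventromedial nucleus, reached -0.60 in fraction 8, while fraction 3 measured -0.94 and fraction 11 -0.97. Esr1, the oestrogen receptor alpha gene, measured -3.70, -3.69 and -4.19 in the block, and fraction 10 was higher at -3.42. Foxb1, which marks the mammillary region and parts of the thalamus and brainstem, measured 1.63, -0.59 and -1.58 in the block, after its maximum of 1.89 in fraction 6. It was higher than in fractions 10 to 12 by 3.33 ± 0.64 (adjusted p = 0.0365). Vgll2, a transcriptional cofactor gene named after its values were seen, measured 0.30, 1.31 and -1.85 and lay between -6.58 and -2.08 elsewhere. Its differences of 4.54 ± 1.21 and 4.74 ± 1.21 from the blocks on either side missed the threshold (adjusted p = 0.207 and 0.0641).

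Lhx8 and Isl1, homeobox genes of cholinergic and striatal neurons that are also active in the hypothalamus, were higher than in fractions 4 to 6 and reached their maxima after the block. Lhx8 measured -3.36, -0.23 and 1.02 in the block and 2.43, 2.82 and 1.31 in fractions 10 to 12. It was not well above background in fractions 4 to 6, over which the block was at least 19.4-fold higher (measured difference 5.14 ± 0.87, adjusted p = 0.039). Isl1 measured -0.73, -0.09 and -0.12 and was higher than in fractions 4 to 6 by 2.75 ± 0.42 (adjusted p = 0.0263), with its maximum of 0.95 in fraction 11. With the slide in the fit the adjusted p were 0.198 and 0.229. Of the 29 hypothalamus transcription factors tested, 25 had a positive difference (median 1.13). Fezf1, Nr0b1 and Six6 lay above all other fractions, which is 10.3% beside 2.25% of all genes. Called higher than in fractions 4 to 6 were 3 of the 29 (0.0888% of all genes), called higher than in fractions 10 to 12 were 5 (1% of all genes), and Pou3f2 was the 1 called lower than in fractions 10 to 12 (0.8% of all genes).

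Of 26 thalamus transcription factors tested, 6 were called higher than in fractions 10 to 12 (1% of all genes) and 0 were called against fractions 4 to 6, beside 0.0888% of all genes higher and 0.19% lower. Tcf7l2, a Wnt effector that marks thalamus and habenula, measured 2.96, 2.98 and 2.42 in the block, above the 2.13 of fraction 6 and the 2.12 of fraction 3, and 0.60 in fraction 10. It was higher than in fractions 10 to 12 by 2.80 ± 0.60 (adjusted p = 0.044), and differed from fractions 4 to 6 by 0.99 ± 0.60 (adjusted p = 0.668). On the slide that holds fraction 9, that fraction was 2.29 above fractions 10 and 11, and the slide fit gave adjusted p = 0.934.

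Lhx9, a LIM homeobox gene of the thalamus, measured 1.74, 2.70 and 2.75 in the block and 2.22 to 2.60 in fractions 3 to 6, so that both ranges overlapped. Gbx2, which is required for thalamocortical projection, measured -0.45, 1.15 and 0.75, against 0.76 in fraction 3. Neither passed against fractions 10 to 12 (3.28 ± 0.83 with adjusted p = 0.0633, and 1.51 ± 0.54 with adjusted p = 0.132). Prox1, a homeobox gene of dentate gyrus, thalamus and habenula, measured -2.06, -1.31 and -1.01, with all other fractions at -2.32 or lower. It was higher than in fractions 10 to 12 by 1.74 ± 0.36 (adjusted p = 0.043) and differed from fractions 4 to 6 by 1.61 ± 0.36 (adjusted p = 0.122).

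Rora, Irx1, Irx2 and Dbx1 were also called higher than in fractions 10 to 12, but were at least as high further back in the count. Rora, an orphan nuclear receptor gene of thalamus and Purkinje cells, measured 0.02, 0.29 and 0.19 in the block and 1.52 in fraction 1, and differed from fractions 10 to 12 by 1.37 ± 0.22 (adjusted p = 0.0233). Irx1 and Irx2, Iroquois homeobox genes of caudal diencephalon and midbrain, both peaked in fraction 3, at 3.95 and 1.69, and measured 1.20 and -1.36 in fraction 9. Their differences from fractions 10 to 12 were 2.46 ± 0.40 (adjusted p = 0.0228) and 3.19 ± 0.67 (adjusted p = 0.043). Dbx1, a progenitor homeobox gene, was not well above background in fractions 10 to 12, and the block was at least 2.99-fold higher (measured difference 3.65 ± 0.51, adjusted p = 0.0161). Dbx1 is on the hypothalamus list too. The median difference of the 26 genes from the other 12 fractions was 0.41, beside -0.01 over all genes.

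Of 29 genes of thalamic neurons, 3 were called higher than in fractions 10 to 12, beside 1% of all genes. Slc17a6, the vesicular glutamate transporter gene of subcortical glutamatergic neurons, measured 3.13, 3.38 and 2.91 in the block, between 2.88 and 3.73 in fractions 1 to 6, and 1.72 in fraction 10. It was higher than in fractions 10 to 12 by 2.10 ± 0.27 (adjusted p = 0.0121; 0.574 with the slide in the fit). Ntng1, a netrin-G gene of thalamocortical axons, measured 2.25, 2.59 and 1.84 and differed from fractions 10 to 12 by 2.21 ± 0.45 (adjusted p = 0.0408). Kitl, the Kit ligand gene, measured 1.18, 1.77 and 1.60, with 1.61 in fraction 14 and a difference of 1.04 ± 0.20 from fractions 10 to 12 (adjusted p = 0.0384). None of the 29 was called against fractions 4 to 6, beside 0.0888% of all genes higher and 0.19% lower. A positive difference from the other 12 fractions was found in 18 of the 29 (median 0.20), beside 48.1% of all genes. Of the 29, 0 lay above all other fractions (2.25% of all genes). Plekhg1 was the 1 that lay below them all (difference -0.90), beside 1.07% of all genes. Cck, the cholecystokinin gene of thalamic and cortical neurons, measured 6.26, 6.53 and 6.40, and fraction 10 measured 6.27.

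Habenula genes were positive in 14 of 15 cases (median 0.40). Gng8, a G protein subunit gene of the medial habenula, measured 0.43, 1.62 and 1.58 in the block, and fraction 15 measured 0.82. Tac2, the neurokinin B gene of medial habenula and arcuate nucleus, measured -0.55, 0.13 and 0.28, with 0.45 in fraction 2, and differed from fractions 4 to 6 by 1.79 ± 0.33 (adjusted p = 0.0578). Pou4f1, a POU factor gene of habenula and brainstem nuclei, was higher than in fractions 10 to 12 by 2.85 ± 0.38 (adjusted p = 0.0138), but its 6 values in fractions 1 to 6, from 1.44 to 2.24, all exceeded the block's highest of 0.08. Wif1, a secreted Wnt inhibitor gene, measured -0.07, 0.02 and -0.24 and was higher than in fractions 10 to 12 by 1.94 ± 0.28 (adjusted p = 0.0177), with its maximum of 1.61 in fraction 2. Gpr151, a receptor of the habenula, was well above background in 2 of the 3 block fractions and in no other, and so was not tested. Chrnb3 was not well above background in any.

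Of 5 pineal genes tested, Tph1 and Sag were highest in fraction 8. Tph1, which encodes the tryptophan hydroxylase of melatonin and serotonin synthesis outside the brain's neurons, measured 1.95 in fraction 8, against -3.85 in fraction 7, -2.99 in fraction 9 and -1.86 at most in the other 12 fractions. Sag, the arrestin gene of photoreceptors and pinealocytes, measured -0.85 in fraction 8, with all other coronal fractions at -4.67 or lower. Both are single values, and the test over the whole block gave adjusted p = 0.621 for each. The other 3 were highest in fractions 3, 10 and 15.

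Of prethalamus, zona incerta and subthalamic genes, 14 of 20 had a positive difference (median 0.49). Isl1 and Dlx6 were called higher than in fractions 4 to 6, beside 0.0888% of all genes. Dlx6, a homeobox gene of GABAergic neurons, measured -3.11, -2.16 and -1.77 in the block and was highest in fraction 12 (-0.66), with a difference of 2.20 ± 0.35 from fractions 4 to 6 (adjusted p = 0.0294). Foxa1, of the subthalamic nucleus and the ventral midbrain region, measured 1.38 and 1.25 in fractions 6 and 7 and -3.63 in fraction 9, and was not called. Barhl1 of the same list was lower than in fractions 4 to 6 (difference -1.22, adjusted p = 0.0294), beside 0.19% of all genes.

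Genes of tanycytes and of the third ventricle had a positive difference in 9 of 11 cases (median 1.24), with Rax and Crym highest in the block and 5 others highest in fraction 10. Just 10 of 20 pituitary genes were tested, with a median difference of 0.17. The hormone genes Gh and Fshb were not well above background in any coronal fraction, whereas Cga was so in 2, both of them in the block, and Tshb in 2, of which 1 lay in the block. Six6 and Pomc are also on the pituitary list, and Six6 is on the midbrain list, so that a count on those lists includes genes of the hypothalamus. The part of pituitary tissue in the block was not tested.

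Wnt signalling, which patterns the dorsal midline and the thalamus, was followed through 48 tested genes. Their median difference was -0.07 with 21 above 0, and 8 were highest and 8 lowest in the block. Wnt9b, one of the ligand genes and not on that list, measured -1.27, -1.05 and -1.50 in the block, -2.17 to -1.86 in fractions 1 to 6 and -4.12 in fraction 10. It was higher than in fractions 10 to 12 by 3.67 ± 0.37 (adjusted p = 0.0058). With the slide in the fit, where fraction 9 alone stands against fractions 10 and 11, the difference was 2.94. Wnt9b was named after its values were seen. Wnt3 was higher than in fractions 10 to 12 by 1.68 ± 0.20 (adjusted p = 0.0094), and Wnt9a by 0.68 ± 0.14 (adjusted p = 0.0408), with values of -0.24, 0.06 and -0.51 that lay above all other fractions. The receptor gene Fzd10 was higher by 2.10 ± 0.25 (adjusted p = 0.0092). Fzd2, another receptor gene, took the opposite course, at 1.11, 0.74 and 0.92 in the block and 1.34 to 3.05 elsewhere, and passed against neither neighbour. In all, 5 of the 48 were called higher than in fractions 10 to 12 (Wnt3, Wnt9a, Fzd10, Tcf7l2 and Wif1), beside 1% of all genes, and the target gene Sp5 was the 1 called lower than in fractions 4 to 6 (0.19% of all genes).

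No Hedgehog pathway gene was called. The difference from the other 12 fractions was negative in 11 of 12 (median -0.42), all but that of the ligand gene Shh, and 6 of 12 (50%) had their lowest coronal value in the block, beside 12.2% of all genes. These were Smo, Gli1, Gli2, Gli3, Boc and Gas1, which encode the signal transducer, the transcription factors and co-receptors of the pathway. Each of the 6 was highest in fraction 1, as were 9 of the 12, and that fraction enters the mean of the other 12. Transmitter transporters and synthetic enzymes had a positive difference in 11 of 17 (median 0.23) with none highest in the block. Th, the rate-limiting enzyme gene of dopamine synthesis, measured 2.14, 1.38 and 0.81, between maxima of 3.42 in fraction 6 and 4.69 in fraction 15. Hdc, which makes histamine, measured 0.34, -0.87 and -0.39, and 0.75 in fraction 10. Channel genes known from thalamic relay cells were positive in 8 of 18 (median -0.12), and 0 were called.

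Other genes that stood above all 12 remaining fractions were named after their values were seen. Frem3, an extracellular matrix gene, measured -1.65, -1.09 and -1.33, against -1.78 in fraction 3, and was higher than in fractions 10 to 12 by 1.94 ± 0.32 (adjusted p = 0.0228). Slitrk6, a synaptic adhesion gene, measured 0.05, 1.21 and 0.59 and differed from fractions 10 to 12 by 2.22 ± 0.38 (adjusted p = 0.0257). Cpne7, a calcium-dependent membrane-binding protein gene, measured 4.03, 4.48 and 4.02, with 3.47 in fraction 6, and differed by 1.44 ± 0.28 (adjusted p = 0.0383). Slc26a4, an anion exchanger gene, measured -1.56, -1.19 and -1.08, with -1.95 in fraction 10. Robo3, a Slit receptor of commissural and habenular axons, measured -2.56, -1.66 and -1.70, with -2.79 in fraction 3. Kcnj5, an inward rectifier potassium channel gene, measured -0.55, -0.26 and -0.75, with -0.88 in fraction 6. The last 3 genes passed against neither neighbour. Robo3 came nearest, with a difference of 1.24 ± 0.29 from fractions 10 to 12 and an adjusted p of 0.0564.

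Long non-coding RNA probes were counted apart. Of 6373 tested, 36 lay above all other fractions (0.565%, beside 1.85% of the other probes), and the median difference was -0.03. Below all other fractions lay 25 of the 6373, beside 289 of all 33788 probes (0.855%). Among the 15 probes above with the largest differences, 2 positions carried 3 probes each. On mm9, 3 probes placed at chr8:83210957-83219451 on the forward strand differed by 2.27, 2.24 and 2.11 from the mean of the other fractions, and 1 of them was higher than in fractions 10 to 12 (2.03 ± 0.32, adjusted p = 0.0225). Another 3 at chr13:78566508-78581785 on the forward strand differed by 1.31, 1.11 and 1.1041, and all were higher than in fractions 10 to 12, by 1.52 ± 0.17 (adjusted p = 0.009), 1.36 ± 0.23 (adjusted p = 0.0253) and 1.52 ± 0.19 (adjusted p = 0.0094). Between these positions in size came single probes on chromosomes 6 and 12 (1.46 and 1.41). With undetected values raised to the detection limit, their differences were 0.06 and 0.59. The chromosome 6 probe was well above background in coronal fractions 4, 8 and 9 alone. The first probe of the chromosome 13 position measured -1.78, -1.39 and -1.75 in the block and -3.52 to -2.48 elsewhere. These probes were named after their values were seen, and probes of 1 position share their transcript.

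Of the 30 genes lower in the block than in fractions 4 to 6 (0.19% of all genes), 4 were among 19 tested hindbrain genes. Another list, of the cerebellum, held 3 (of 19 tested), oligodendrocyte genes made up 3 (of 20) and midbrain genes 2 (of 20). The 2 midbrain genes, En2 and Barhl1, are also on the cerebellum list and are counted in both. The 30 included Hoxa2, Hoxa3 and Hoxb2, which pattern the hindbrain, with measured differences of -4.49, -4.57 and -4.42, the interneuron factor gene Evx1 (-5.12, adjusted p = 0.0142), the midbrain-hindbrain gene En2 (-4.14, adjusted p = 0.0151), and Pax2 and Pax8. Of these, Pax2 and Pax8 were not well above background in any block fraction, and Hoxa2, Hoxb2 and Evx1 were so in 1 of the 3. The glycine receptor gene Glra1 and the lens crystallin gene Cryba2 were not well above background in the block either, where they were at least 2.87-fold and at least 5.28-fold lower (measured differences -3.54 and -4.32, adjusted p = 0.0021 and 0.0006). Both were called lower also with the slide in the fit, as was Evx1. Genes lower than in fractions 10 to 12 included the striatal genes Ppp1r1b, the phosphoprotein DARPP-32 gene (-3.22, adjusted p = 0.0378), Rarb, a retinoic acid receptor gene (-2.50, adjusted p = 0.0094), and the adenosine receptor gene Adora2a (-1.80, adjusted p = 0.0418). Of 19 striatum genes 8 were called lower than in fractions 10 to 12, beside 0.8% of all genes. These striatal calls cross slides. With the slide in the fit that comparison rests on fraction 9 alone and does not describe the block. Of 19 hindbrain genes 13 (68.4%) had their lowest value in the block, beside 12.2% of all genes. Just 6 of the 19 were well above background in all 3 block fractions, beside 14868 of all 15759 genes. The place of the lowest value is therefore in part an order among undetected signals.

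No cell division gene was called against the other fractions or either neighbouring block. Of 13 tested, 12 had a negative difference (median -0.66), 9 (69.2%) had their lowest coronal value in fractions 7 to 9 (12.2% of all genes), and all 13 were highest in fraction 1, which enters the mean of the other 12. In the 3 genes whose block values lay below all others, the nearest other fraction was close. Mki67, the gene of the Ki-67 proliferation antigen, measured 1.89, 1.70 and 2.02, just under the lowest other value of 2.02 (fraction 4), and reached 4.25 in fraction 1. Ccna2 (cyclin A2) measured 1.20, 1.38 and 1.32, under 1.41 in fraction 6. Ube2c, a ubiquitin-conjugating enzyme gene of mitosis, measured 1.35, 1.43 and 1.38, under 1.46 in fraction 6. H1f5, a replication-dependent linker histone gene, measured 2.13, 2.01 and 1.99, with 2.14 in fraction 6 and 5.81 in fraction 1. Mdk (midkine, a growth factor) and Lgi4 (a secreted glial protein) were also lower in the block than in every other fraction, at 2.06, 2.12 and 2.00 against 2.29 or more and at -0.74, -0.87 and -0.62 against -0.27 or more. H1f5, Mdk and Lgi4 were named after their values were seen.

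**Figure D5:**
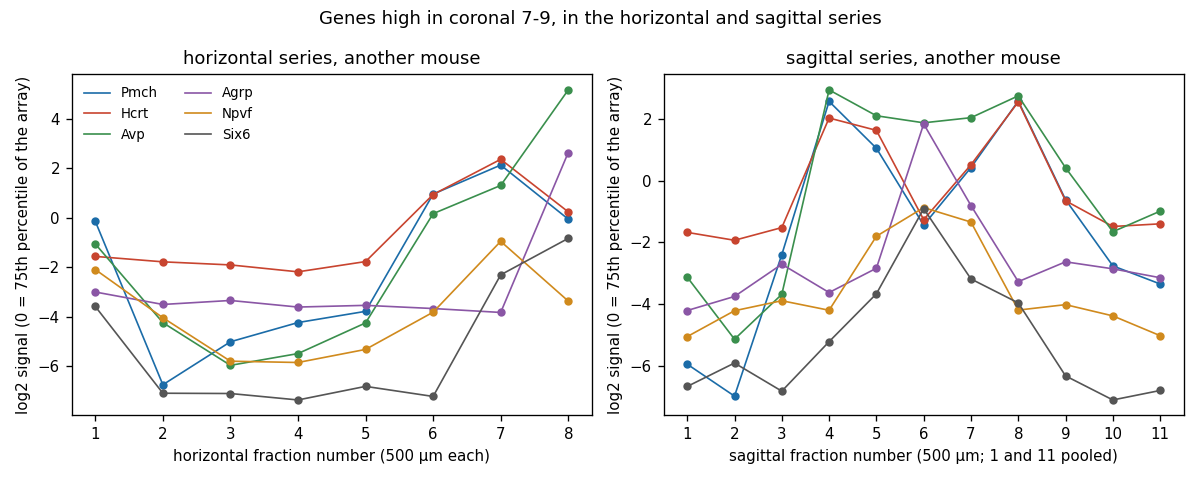
Log2 signal of genes high in coronal fractions 7 to 9 over the 8 horizontal fractions of 1 mouse (left) and the 11 sagittal fractions of another (right). In the sagittal series Pmch and Hcrt were highest in fractions 4 and 8 and Agrp, Npvf and Six6 in fraction 6, and in the horizontal series Agrp was high in fraction 8 alone.

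The profiles were then followed in the other planes, which come from other mice and did not enter the comparison above. In the sagittal series, fraction 6 was taken as the middle, which the labels do not state. Pmch measured 2.57 in fraction 4, -1.44 in fraction 6 and 2.58 in fraction 8, and Hcrt measured 2.03, -1.26 and 2.55 in the same fractions, so that both peaked on either side of the middle. Agrp was highest in fraction 6 (1.84), and so were Six6 (-0.91), Rax (-1.66), Kiss1 (-1.71), Pomc (1.16), Ghrh (0.69), Npvf (-0.87) and Oxt (2.09). Avp measured 2.94 in fraction 4, 1.88 in fraction 6 and 2.75 in fraction 8.

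Tested as fractions 5 to 7 against the other 8 sagittal fractions, 7 probes were higher (0.0207%) and 7 lower (0.0207%). Npvf was among them, at -1.80, -0.87 and -1.34 against -3.89 or lower elsewhere, a difference of 3.03 ± 0.27 (adjusted p = 0.0042). None of the 354 genes above all other coronal fractions was called in this comparison, nor any of the 169 below. Over all 15759 genes it called 5 higher and 5 lower. Of the 354 genes, 170 (48%) had a positive sagittal difference, beside 42.6% of all genes. Tph1 was highest in sagittal fraction 5 (1.70) and horizontal fraction 2 (2.54), and Sag in the same fractions (-0.86 and 0.16).

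In the horizontal series 70.8% of the 48 hypothalamic peptide and enzyme genes were highest in fractions 7 and 8 (12 and 22 genes), beside 26.7% of all genes. Lists of other regions and cells had high shares there too, among them prethalamus (70%), amygdala and basal forebrain (64.7%), meningeal (66.7%) and microglia genes (100%). Low shares were found for midbrain (5%) and cerebellum genes (5.26%), among others. Avp (5.16), Agrp (2.64), Oxt (3.43), Ghrh (2.11), Kiss1 (-1.41) and Pomc (1.90) were highest in fraction 8, and Pmch (2.13), Hcrt (2.36) and Npvf (-0.95) in fraction 7. Of 26 thalamus transcription factors, 7 were highest in fraction 3, 6 in fraction 2 and 4 each in fractions 4 and 5. Tcf7l2 and Lhx9 were highest in fraction 3 (2.79 and 2.92), and Prox1 in fractions 4 and 5 (-1.36 and -1.39). Horizontal fractions 6 to 8 were then tested against 1 to 3, which called 140 probes higher (0.414%) and 94 lower (0.278%). Fraction 1 stood apart at that end, with Pmch at -0.14, Avp at -1.06, Six6 at -3.58 and Fezf1 at -2.02, while fraction 2 measured -6.74, -4.23, -7.09 and -7.10. The cause was not tested. Against fractions 2 and 3 alone, limma called 0 probes higher (0%) and 0 lower (0%), with 2302 higher and 2437 lower at an unadjusted p under 0.05. Of the 354 genes above all other coronal fractions, 5 were called higher and 2 lower in the test with fraction 1, and 0 without it. Over all 15759 genes the test with fraction 1 called 102 higher and 37 lower. Cpne7 was among the 354 genes called (1.32, adjusted p = 0.0467).

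Markers of other regions and cell types were counted in the same way. Cerebral cortex genes had a positive difference in 18 of 21 (median 0.87), and 8 of them were highest in fraction 13. Bhlhe22 and Nr2f1, transcription factor genes of cortical and other neurons, lay above all other fractions, at 2.44, 2.58 and 2.49 against 2.29 in fraction 13 and at 5.86, 5.97 and 5.82 against 5.63 in fraction 6. Hippocampus genes were positive in 11 of 15 (median 0.25), a list that also holds Prox1. Choroid plexus genes were positive in 13 of 16 (median 0.54), but mostly highest in fraction 3. Oligodendrocyte genes were positive in 4 of 20 (median -0.37), astrocyte genes in 2 of 16 (-0.29), microglia genes in 3 of 12 (-0.15), endothelial and pericyte genes in 5 of 17 (-0.19), meningeal and fibroblast genes in 1 of 15 (-0.43) and blood genes in 1 of 11 (-0.62). Their part in the differences above was not tested.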

How the data were processed

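RNA of each fraction was hybridised to 1 Agilent array, and the authors scanned the arrays with Feature Extraction 10.10.1.1. The authors deposited the intensity of every spot as a background-subtracted processed signal with detection flags, and a table of log2 values for 43199 probes, each value being log2 intensity less 1 constant per array. For 99.9% of values the distance from the processed signal in log2, less that constant, was under 0.02, and the constant was within 0.012 of the array's 75th percentile. The deposited log2 values were used without further scaling.

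Samples were grouped by plane and fraction number from their titles. A probe was tested when it was well above background in at least 3 of the 15 coronal fractions (33788 probes). Where a group had no array well above background, a fold was computed against the lowest signal well above background on each array, or the probe's own signal where that was higher, and is given as "at least". Limma 3.58.1 in R 4.3.3 (lmFit, eBayes, two-sided, Benjamini-Hochberg adjusted p under 0.05 over all 33788 probes) compared fractions 7 to 9 with the other 12, and, in a fit with 5 blocks of 3 fractions, with fractions 4 to 6 and 10 to 12. The paper's methods state no such test. The other planes were fitted alike. Scripts were tested on simulated data with Python 3.11.15, numpy 2.4.6 and pandas 2.3.3. Each gene has 1 probe, the one well above background in the most coronal fractions, and the 31 gene lists get counts and medians with no test.

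The fractions, lists and comparisons were chosen with earlier results of these data known. Named genes were to be the leading genes past the threshold, members of the diencephalon, pathway and pituitary lists, and at most 4 members of each other list. Since no gene passed the first threshold, other named genes were chosen after their values were seen. Some members of the lists are counted but not reported by name here. Symbols and promoter sequences come from RefSeq tables of GRCm38.p6, and positions of non-coding probes from the array files on mm9. Alternatives were other scalings, a normexp background correction (offset 50), other detection filters, limma-trend, the slide as a block, other reference fractions, and leaving out single fractions. Raising undetected values to the detection limit, leaving out horizontal fraction 1, and the alternatives for each neighbouring block alone were added after seeing the data.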

Additional observations from a re-analysis of the deposited data

Results flagged for a closer look

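In 10 of the 67 genes with a stated difference, 1 of the 8 horizontal fractions lay far from the other 7. Chance flags about 1 in 20 groups of repeated measurements in this way. The 8 fractions are different positions of 1 brain, so that this rate does not apply to them. Agrp in fraction 8 was 2.64, with -2.998 as the next highest value, and Kiss1 (-1.41) and Pomc (1.90) were also highest in fraction 8 by a wide gap. In the same fraction Irx2 (-1.64), Dbx1 (-7.40) and Nr2f1 (4.95) were lowest. Fraction 2 held the lowest Gbx2 (-5.80) and Hdc (-4.15), fraction 1 the lowest Wif1 (-1.55) and fraction 4 the highest Ube2c (2.54).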

How the results depend on the processing

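Over 14 settings, the difference of the block from the other coronal fractions was followed for the 67 genes with a stated difference. Of 910 values, 876 kept their direction and still did not pass the threshold. Another 25 (in 11 genes) passed it with the same direction, and 9 (in 5 genes) reversed. No probe passed in that comparison under the main processing, so this count could not show the loss of a call. It does not cover the calls against each neighbouring block on its own, whose numbers under other settings are given below. The reversed differences, none of which passed, were Pomc without fraction 8 (-0.008), Npy with the slide as a block (0.32), against the neighbouring blocks alone (0.14), without fractions 1 and 15 (0.038) and without fraction 7 (0.12), Rora with the slide as a block (-0.063), Irx1 with the slide as a block (-0.075), and Pou4f1 with the normexp correction (-0.027) and with the slide as a block (-0.22). Leaving out single block fractions gave -0.008 to 0.63 for Pomc and -0.28 to 0.12 for Npy. The cause was not tested.

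Probes higher than in all other fractions numbered 11 with the normexp correction, 7 with undetected values at the detection limit, 2 when detected in all 15 fractions, 2 with limma-trend, 1 with the slide as a block and 1 without fractions 1 and 15. Leaving out single block fractions gave 0 to 5. Probes higher than in both neighbouring blocks numbered 7 with limma-trend, 1 with no detection filter, and 0 with detection in all 15 fractions and with the slide as a block. Leaving out single block fractions gave 0 to 5. Probes lower than in both numbered 1 with the normexp correction, with limma-trend and with undetected values at the limit. Probes higher than in fractions 4 to 6 numbered 5 with detection in all 15, 44 with limma-trend, 8 with the slide as a block, and 2 to 36 when single block fractions were left out. Probes lower than in fractions 4 to 6 numbered 78 with normexp, 17 with detection in all 15, 87 with limma-trend, 8 with the slide as a block, 90 at the detection limit, and 4 to 103 when single fractions were left out. Probes higher than in fractions 10 to 12 numbered 811 with normexp, 76 with no detection filter, 447 with detection in all 15, 510 with limma-trend, 16 with the slide as a block, and 6 to 111 when single fractions were left out. Probes lower than in fractions 10 to 12 numbered 830, 73, 766 and 753 under the first 4 of these settings, 1 with the slide as a block, 436 at the detection limit, and 3 to 98 when single fractions were left out. In the sagittal series, 11 probes were lower with quantile normalization and 11 from the processed signal, and in the horizontal series 0 were higher and 0 lower without fraction 1.

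No paired analysis was possible because the same fraction number in another plane is another position of another mouse. The planned shares of block-higher probes in the other planes could not be computed, since no probe was called. Each fraction rests on 1 array of 1 mouse, and signals near the detection limit (between -5.52 and -4.21 on coronal arrays) are bounds.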
